A study of Mus musculus with 24 samples.

Results

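The miR-181 family was followed through the development of the mouse mammary gland. Its 4 mature 5p arms, mmu-miR-181a-5p, mmu-miR-181b-5p, mmu-miR-181c-5p and mmu-miR-181d-5p, were taken by name from the 1009 miRNAs listed in the deposited table. The glands came from female C57BL/6 mice, with 6 mice at each of 4 stages. They were adults of 10 weeks (W10), pregnant mice on day 18 (P18), lactating mice on day 7 (Lac7) and, in the regression of the gland that follows suckling, mice on involution day 3 (Inv3). The labels name no treatment and no altered allele. The abdominal and inguinal glands were homogenised whole, so each of the 24 libraries mixes epithelium, fat, vessels, stroma and immune cells, and fewer cells of a type cannot be told apart from less RNA per cell. Levels are in RPM, for which the reads on all listed miRNAs of a library were scaled to the same total. The libraries held 660346 to 1165321 reads, and Lac7 had the lowest median, 693167 reads.

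A miRNA finds its target messengers mainly through its seed, bases 2 to 8 from the 5′ end, so miRNAs that share a seed can bind overlapping sets of targets. The miR-181 family is best known from lymphocytes, where miR-181a sets how sensitive developing T cells are to their antigen receptor and where the family takes part in B cell development. In breast cancer cell lines the family is raised by TGF-beta, a growth factor that drives the epithelial-mesenchymal transition (EMT). In the miRNA table of RefSeq (GRCm38.p6), all 4 members had a sequence, and of 1679 mature mouse miRNAs only these 4 carried the seed. The mature sequences are printed because the members share the seed and differ behind it, with the seed in capitals:
miR-181a-5p: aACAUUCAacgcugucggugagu
miR-181b-5p: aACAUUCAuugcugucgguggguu
miR-181c-5p: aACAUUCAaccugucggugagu
miR-181d-5p: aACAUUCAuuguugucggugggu

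Counted from the 5′ end, miR-181b-5p differs from miR-181a-5p by A9U, C10U and A21G and is 1 base longer. The miR-181d-5p sequence differs from miR-181b-5p by C12U and is 1 base shorter, and miR-181c-5p is miR-181a-5p with the base at position 11 left out. With so few differences, a read with an error could be counted for the wrong member, and the share of such reads was not measured.

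The members are cut from 6 hairpins in 3 clusters (GENCODE M21, GRCm38). Mir181a-1 (chr1:137966455-137966541, plus strand) and Mir181b-1 (chr1:137966639-137966718, plus strand) lie 97 bases apart, in an intron of the noncoding gene Gm4258, and both overlap an exon of the long noncoding RNA A430106G13Rik on the same strand. Mir181a-2 (chr2:38852735-38852810, plus strand) and Mir181b-2 (chr2:38853830-38853918, plus strand) are 1019 bases apart and lie opposite to an intron of Nr6a1, which encodes an orphan nuclear receptor. Mir181d (chr8:84178716-84178787, minus strand) and Mir181c (chr8:84178873-84178961, minus strand) are 85 bases apart in an intron of Nanos3, an RNA-binding protein gene of the germ line, on the same strand. The mature miR-181a-5p is the same from Mir181a-1 and Mir181a-2, as miR-181b-5p is from Mir181b-1 and Mir181b-2, so reads of a 5p arm cannot be assigned to a cluster. The 3p arms differ between the clusters and are printed for that reason, again with bases 2 to 8 in capitals:
miR-181a-1-3p: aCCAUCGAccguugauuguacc
miR-181a-2-3p: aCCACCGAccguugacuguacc
miR-181b-1-3p: cUCACUGAacaaugaaugcaa
miR-181b-2-3p: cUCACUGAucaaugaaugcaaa
miR-181c-3p: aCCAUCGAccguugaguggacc

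The miR-181a-2-3p sequence differs from miR-181a-1-3p by U5C, inside the seed, and U16C. The miR-181b-2-3p sequence differs from miR-181b-1-3p by A9U and is 1 base longer, and miR-181c-3p differs from miR-181a-1-3p by U16G and U19G, so these pairs keep their seeds.

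Some libraries stood apart. At W10, mice 1 and 4 had the highest levels of all 4 members, and the changes of the members against W10 are therefore also given without them, a choice made after their values were seen. The 3p arms, on few reads, did not all share this. In these mice miR-181b-1-3p was at its lowest of the stage, 2.16 and 2.15 RPM, and miR-181a-2-3p at its highest, 7.55 and 9.68 RPM. The miRNA of hepatocytes, miR-122-5p, was at 2062 RPM in P18 mouse 6 and at no more than 2.07 RPM in the other P18 mice, and it reached 625.6 RPM at Inv3. No call on a member changed when P18 mouse 6 was left out. Skeletal muscle miRNAs (miR-1a-3p, miR-133a-3p, miR-133b-3p and miR-206-3p) summed to 2378 to 24030 RPM at W10, with the highest value in mouse 4. At Inv3, the summed epithelial miRNAs were at 27780 to 33320 RPM in mice 1, 2 and 5 and at 63090 to 81460 RPM in mice 3, 4 and 6.

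Of the family, miR-181a-5p and miR-181b-5p made up nearly all reads at every stage. The mean summed level of the 4 members was 1443 ± 897.9 RPM (SD, n = 6) at W10 and 1734 ± 358 RPM at P18. It was 2804 ± 387 RPM at Lac7 and 895 ± 227 RPM at Inv3. In the order of the stages this is 0.144%, 0.173%, 0.28% and 0.09% of all miRNA reads. The lowest mouse of Lac7, at 2420 RPM, was above every mouse of P18 and Inv3 but below the highest mouse of W10, at 2831 RPM. The mean of Lac7 was 1.62 times that of P18 and 3.13 times that of Inv3.

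The level of miR-181a-5p was highest at Lac7 by its mean. Its lowest, median and highest mice were at 464, 745 and 2066 RPM at W10. They were at 471, 666 and 787 RPM at P18. They were at 1179, 1288 and 1772 RPM at Lac7, and at 388, 583 and 813 RPM at Inv3. Every Lac7 mouse was thus above every mouse of P18 and of Inv3, while W10 spread across both, with mice 1 and 4 (1635 and 2066 RPM) far above the other 4 mice (464 to 765 RPM). From the highest mean to the lowest the order was Lac7 (1374 ± 215 RPM), W10 (1042 ± 649.7), P18 (634 ± 127) and Inv3 (573 ± 158), and neither W10 and P18 nor P18 and Inv3 passed the test described below.

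The level of miR-181b-5p was high at both P18 and Lac7. Its lowest, median and highest mice were at 183, 238 and 649.9 RPM at W10. They were at 782, 1056 and 1426 RPM at P18. They were at 1215, 1440.2 and 1702 RPM at Lac7, and at 222.9, 313 and 397 RPM at Inv3. All 12 mice of P18 and Lac7 lay above all 12 mice of W10 and Inv3. The order of the means was Lac7 (1415 ± 183 RPM), P18 (1053 ± 228), W10 (352 ± 215) and Inv3 (309 ± 68.9), and within each of the pairs Lac7 and P18, and W10 and Inv3, the stages did not pass the test. A level of 500 RPM was reached by 2 of 6 mice at W10, by all 6 at P18 and Lac7 and by 0 at Inv3, whereas miR-181a-5p reached it in 5, 4, 6 and 4 mice in the same order of stages.

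Both members of the chromosome 8 cluster were low and rested on few reads. The level of miR-181c-5p was at 14.9, 20.3 and 69.9 RPM at W10 in its lowest, median and highest mice. It was at 8.58, 16.6 and 28.0 RPM at P18. It was at 4.01, 7.54 and 14.8 RPM at Lac7, and at 3.81, 8.94 and 12.01 RPM at Inv3. Every W10 mouse was above every mouse of Lac7 but 1 pair of values nearly met, the highest Lac7 mouse at 14.83 RPM and the lowest W10 mouse at 14.92 RPM. Each mouse gave 15 to 65 reads at W10 and 10 to 27 at P18, then 3 to 10 at Lac7 and 4 to 14 at Inv3. The order of the means was W10 (31.0 ± 21.9 RPM), P18 (17.3 ± 6.67), Inv3 (8.83 ± 2.86) and Lac7 (8.14 ± 3.75), and no stage passed the test against the next in this order.

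The level of miR-181d-5p was highest at P18. Its lowest, median and highest mice were at 3.5, 16.2 and 45.2 RPM at W10. They were at 19.7, 29.6 and 43.8 RPM at P18. They were at 1.34, 5.55 and 18.0 RPM at Lac7, and at 0.95, 4.03 and 12.01 RPM at Inv3. Every P18 mouse was above every mouse of Lac7 and Inv3, and W10 overlapped all 3 other stages. Each mouse gave 4 to 42 reads at W10 and 23 to 43 at P18, then 1 to 12 at Lac7 and 1 to 14 at Inv3. The means ran from P18 (30.1 ± 7.91 RPM) over W10 (18.3 ± 15.2) and Lac7 (7.08 ± 6.39) to Inv3 (4.48 ± 3.98), and of the neighbours only W10 and Lac7 passed the test, a call that did not hold under other scalings.

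**Figure D1:**
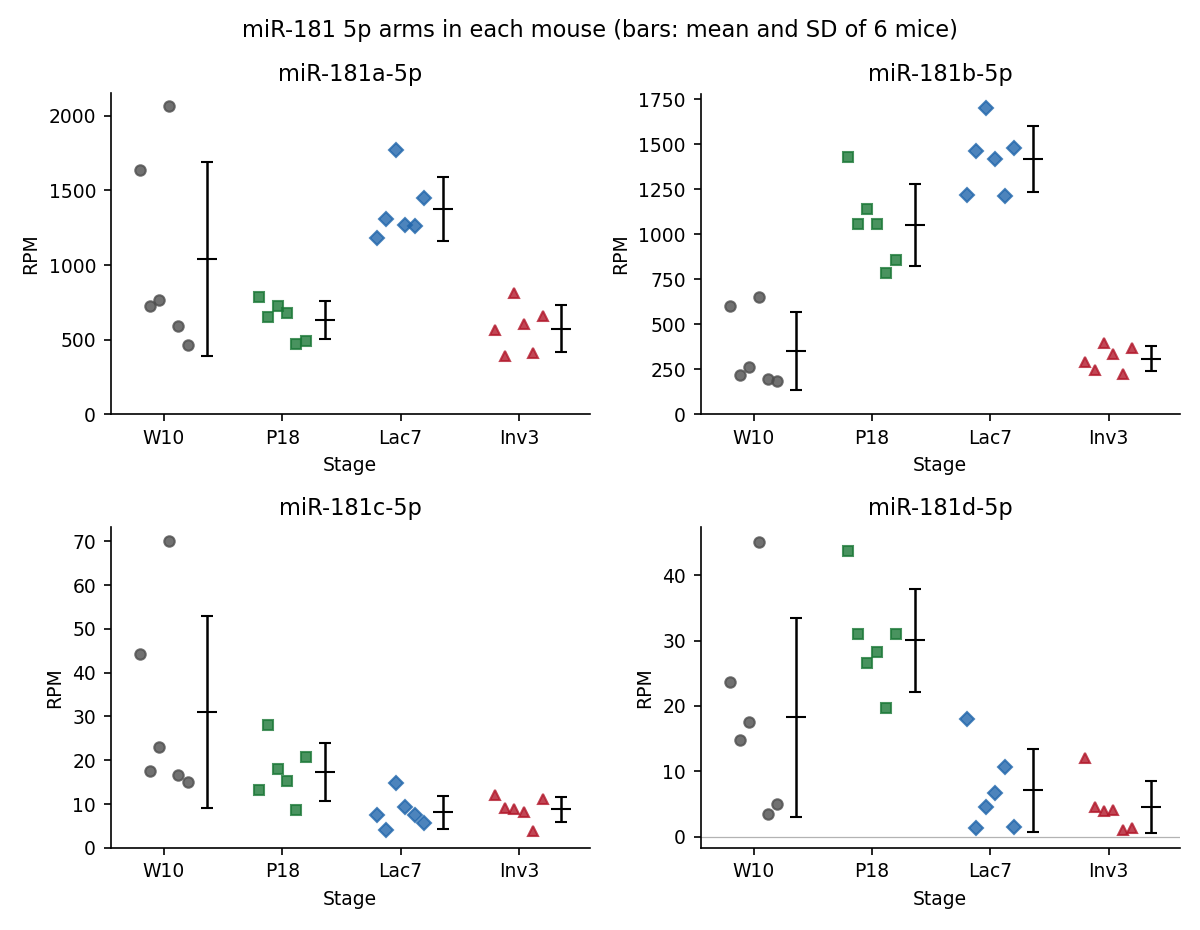
Level of each 5p arm in RPM (vertical axes, linear, each with its own range) at the 4 stages (horizontal axes); each point is 1 mouse, and the bars give the mean and SD of 6 mice. All P18 and Lac7 mice lie above all W10 and Inv3 mice for miR-181b-5p, and W10 mice 1 and 4 are the 2 highest W10 points in every panel.

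Changes between stages were tested for the 544 miRNAs whose stage mean reached 1 RPM in any stage, by limma on log2(RPM + 1) in 1 fit over the 24 libraries, with Benjamini-Hochberg adjusted p under 0.05 as the threshold. All 4 members were tested, and each had a mean above 1 RPM at every stage. Fold changes below are on the log2(RPM + 1) scale, with 95% intervals, and understate changes of the low members. The 6 comparisons share stages and are not independent. In RPM the median of the 544 miRNAs was not at 0: it was -0.32 for P18 against W10, -0.34 for Lac7 against P18, 0.28 for Inv3 against Lac7, -0.66 for Lac7 against W10, -0.41 for Inv3 against W10 and -0.11 for Inv3 against P18. Scaling by DESeq2 size factors brought these medians to -0.12, -0.14, 0.18, -0.31, -0.10 and -0.02. TMM scaling brought them to -0.04, -0.29, 0.27, -0.39, -0.08 and -0.06.

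From W10 to P18, miR-181b-5p rose and the other 3 members did not pass the test. The mean of miR-181b-5p was 2.99 times higher at P18, with a fitted change of 1.76 (1.24 to 2.27, adjusted p = 1.7e-06), and the 2 stages did not overlap. Without W10 mice 1 and 4 it was 4.91 times higher. With all mice, the increase stood in place 23 from the highest among the 544 miRNAs, of which 12.1% were higher and 29.4% lower at P18. The change was -0.52 (-1.06 to 0.01) for miR-181a-5p, -0.65 (-1.39 to 0.09) for miR-181c-5p and 1.07 (-0.03 to 2.17) for miR-181d-5p, each with an adjusted p of 0.11 to 0.15 in limma. Without the same mice, miR-181a-5p was at -0.007 and miR-181c-5p at -0.12, and miR-181d-5p passed at 1.68. In this comparison 66 miRNAs were called higher and 160 lower, against 93 and 121 with size factors and 104 and 108 with TMM.

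From P18 to Lac7, miR-181a-5p rose while miR-181c-5p and miR-181d-5p fell. The mean of miR-181a-5p was 2.17 times higher at Lac7, with a fitted change of 1.13 (0.59 to 1.67, adjusted p = 0.00082), and no Lac7 mouse was as low as a P18 mouse. Among all miRNAs tested, 13.8% were higher and 31.4% lower at Lac7. The mean of miR-181d-5p was 4.25 times lower, with a change of -2.31 (-3.41 to -1.21, adjusted p = 0.00081) and no overlap. The mean of miR-181c-5p was 2.12 times lower, with a change of -1.01 (-1.75 to -0.27, adjusted p = 0.022) and overlap, but with size factors it was at -0.74 and did not pass, nor did it without P18 mouse 2 or Lac7 mouse 2. For miR-181b-5p the change was 0.44 (-0.07 to 0.96, adjusted p = 0.15), which with size factors was 0.75 and passed. The calls were 75 higher and 171 lower, against 105 and 131 with size factors.

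From Lac7 to Inv3, both abundant members fell. The mean of miR-181b-5p was 4.58 times lower at Inv3, with a change of -2.21 (-2.73 to -1.70, adjusted p = 4.9e-08), and it stood in place 14 from the lowest of 544. The mean of miR-181a-5p was 2.4 times lower, with a change of -1.29 (-1.83 to -0.76, adjusted p = 0.00019). Neither overlapped between the 2 stages. Of all miRNAs 27.9% were higher and 18.9% lower at Inv3. The changes of miR-181c-5p, 0.13 (-0.61 to 0.87), and miR-181d-5p, -0.44 (-1.54 to 0.67), did not pass, with adjusted p of 0.77 and 0.52 in limma, and that of miR-181c-5p turned to -0.02 with size factors. The calls were 152 higher and 103 lower, against 126 and 121 with size factors.

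Against W10, Lac7 was higher in the abundant pair and lower in the rare pair. The mean of miR-181b-5p was 4.02 times higher at Lac7, with a change of 2.20 (1.69 to 2.72, adjusted p = 1.6e-08) and no overlap, and 6.6 times higher without W10 mice 1 and 4. The change of miR-181a-5p was 0.60 (0.06 to 1.14, adjusted p = 0.045) with overlap, a call lost when any of 9 of the 12 mice was left out, and 1.12 without W10 mice 1 and 4. The mean of miR-181c-5p was 3.81 times lower, with a change of -1.66 (-2.40 to -0.93, adjusted p = 0.00023), and without these 2 mice it was 2.21 times lower, with a change of -1.13 that still passed. The change of miR-181d-5p, -1.24 (-2.35 to -0.14, adjusted p = 0.044), was lost without the same mice, at -0.63, and under both other scalings. Of all miRNAs 18.2% were higher and 48.5% lower at Lac7, and the split of 99 higher to 264 lower moved to 131 and 206 with size factors.

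Between Inv3 and the 2 stages before lactation, the members differed again. Against W10, miR-181c-5p was lower at Inv3, by -1.53 (-2.27 to -0.79, adjusted p = 0.0012) with no overlap, as were miR-181d-5p, at -1.68 (-2.78 to -0.58, adjusted p = 0.014), and miR-181a-5p, at -0.69 (-1.23 to -0.15, adjusted p = 0.038). The last 2 calls were lost under both other scalings and without W10 mice 1 and 4, where they were at -1.065 and -0.17, while miR-181c-5p still passed there at -1.0. The change of miR-181b-5p was -0.01 (-0.52 to 0.50, adjusted p = 0.98) in RPM but 0.37 with size factors and 0.39 with TMM, and without the 2 mice it was 0.51 and passed. Of all miRNAs 7.9% were higher and 31.2% lower at Inv3, and the split of 43 to 170 became 71 to 91 with size factors and 77 to 90 with TMM. Against P18, miR-181b-5p was 3.4 times lower by its mean, with a change of -1.77 (-2.28 to -1.25, adjusted p = 5e-06). The mean of miR-181d-5p was 6.71 times lower, with a change of -2.75 (-3.85 to -1.65, adjusted p = 0.00032), in place 3 from the lowest of 544. Both members were without overlap between the 2 stages. Of all miRNAs, 10.8% passed the test as higher and 17.6% as lower at Inv3. The change of miR-181a-5p against P18 was -0.17 (-0.71 to 0.37) and that of miR-181c-5p -0.88 (-1.62 to -0.14), with adjusted p of 0.69 and 0.07 in limma.

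**Figure D2:**
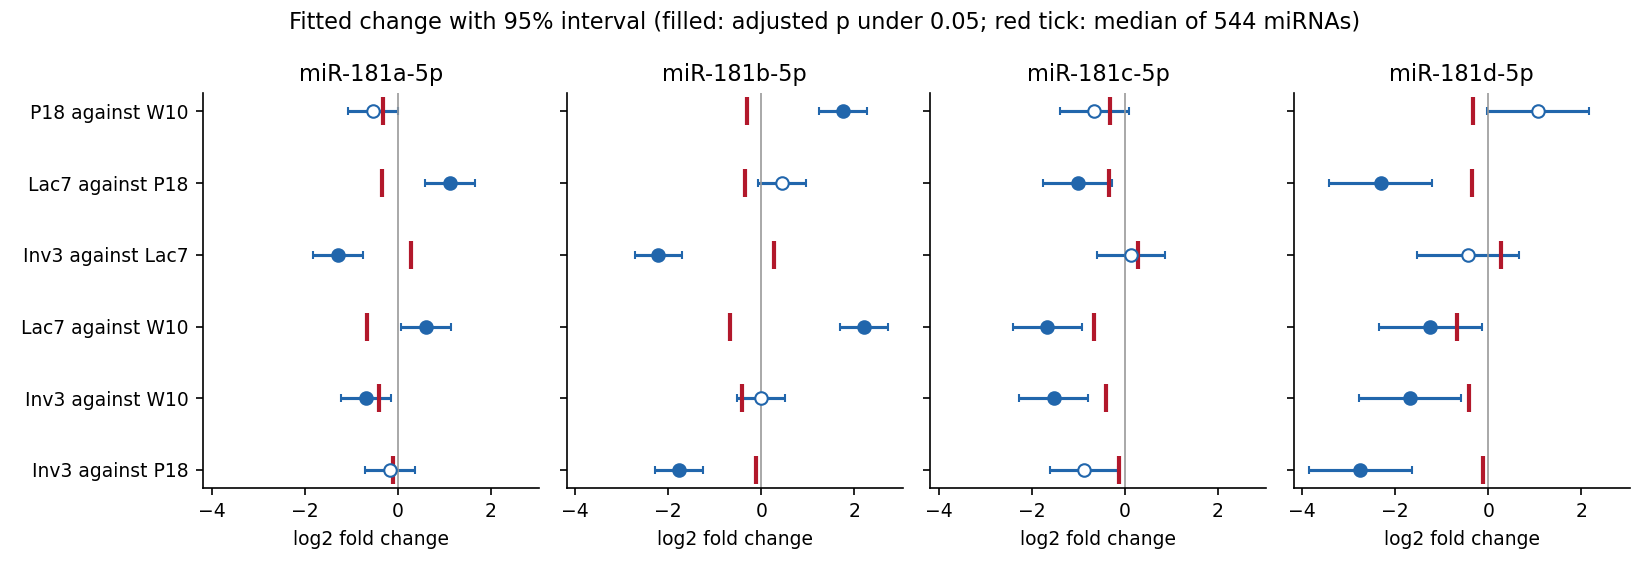
Fitted log2 fold change (horizontal axes) of each member in the 6 comparisons (vertical axis), with 95% intervals from limma. Filled points have an adjusted p under 0.05, and the red ticks mark the median of the 544 miRNAs tested. The points of miR-181a-5p and miR-181b-5p lie on the same side of 0 between Lac7 and its 2 neighbours in time, P18 and Inv3, and on opposite sides for P18 against W10, where only miR-181b-5p passed.

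The balance of the abundant pair changed at every step, and with little spread between mice. The ratio of miR-181b-5p to miR-181a-5p had a geometric mean of 0.341 at W10, with mice from 0.299 to 0.395. It was 1.66 at P18, with mice from 1.56 to 1.81. It was 1.03 at Lac7, from 0.961 to 1.12, and 0.547 at Inv3, from 0.489 to 0.63. No 2 stages overlapped. In each of the 6 comparisons the exact two-sided permutation test over all divisions of the 12 mice into 6 and 6, on log2((x + 1)/(y + 1)), gave p = 0.0022, the smallest it allows (adjusted p = 0.0041 over 30 ratio tests). The ratio was 4.86 times higher at P18 than at W10, then 1.61 times lower at Lac7 and a further 1.89 times lower at Inv3, where it was still 1.6 times that of W10. The scaling of a library cancels in such a ratio but for the pseudocount. The 3 differences from W10 were 2.28, 1.60 and 0.68 on the log2 scale, for P18, Lac7 and Inv3, and the same to 2 decimals without W10 mice 1 and 4.

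**Figure D3:**
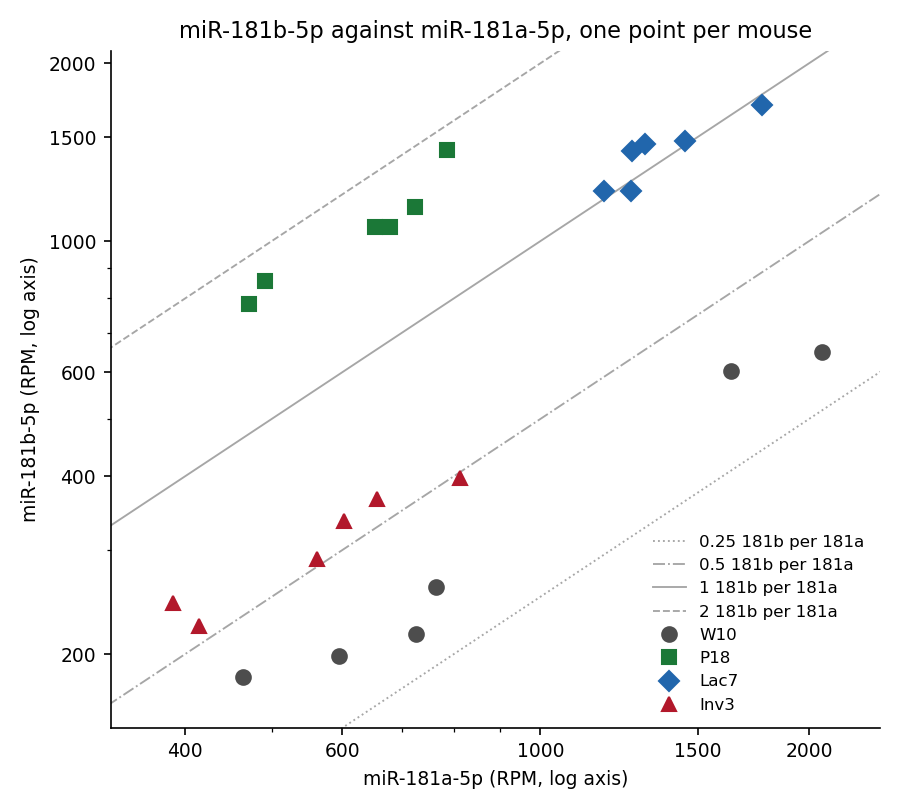
Level of miR-181b-5p (vertical axis) against miR-181a-5p (horizontal axis), both in RPM on log axes, with 1 point per mouse and grey lines of equal ratio. The mice of each stage line up along a ratio of their own, from 0.341 at W10 to 1.66 at P18, and W10 mice 1 and 4 lie far to the right on the line of their stage.

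The same is seen in shares of the family. At W10, 72.1 ± 1.75% of the family's reads were miR-181a-5p and 24.6 ± 1.95% miR-181b-5p. At P18 these shares were 36.6 ± 1.41% and 60.7 ± 1.28%. At Lac7 they were 48.9 ± 1.65% and 50.5 ± 1.75%, and at Inv3 63.7 ± 2.08% and 34.8 ± 1.89%. The order of the pair was thus turned at P18 in all 6 mice and turned back at Inv3 in all 6. The share of miR-181c-5p was 2.10 ± 0.24% at W10 and 0.286 ± 0.102% at Lac7, and that of miR-181d-5p was 1.74 ± 0.3% at P18 and 0.273 ± 0.272% at Lac7.

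**Figure D4:**
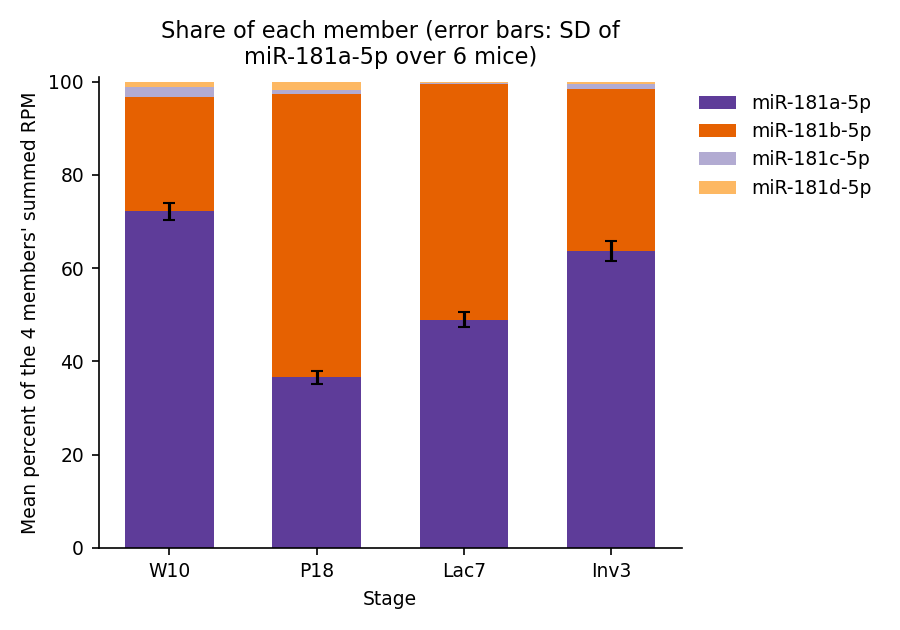
Mean share of each member in the summed RPM of the family (vertical axis, percent, n = 6 mice) at each stage (horizontal axis); error bars are the SD of the miR-181a-5p share. The miR-181a-5p share runs from 72.1% at W10 to 36.6% at P18, and miR-181c-5p and miR-181d-5p are thin bands at the top of each bar.

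The rare members were also set against miR-181a-5p. The ratio of miR-181c-5p to miR-181a-5p did not pass between W10 and P18, with a log2 difference of -0.13 (exact permutation p = 0.59, adjusted p = 0.61). At Lac7 it was 4.4 times lower than at P18 and 4.81 times lower than at W10, and at Inv3 it was 2.69 times higher than at Lac7, each without overlap (exact permutation p = 0.0022, adjusted p = 0.0041). The ratio of miR-181d-5p to miR-181a-5p was 3.02 times higher at P18 than at W10 and then 10.8 times lower at Lac7, again without overlap and with the same exact permutation p. Of the 30 ratio tests, 22 passed. Between the 2 members of the chromosome 8 cluster, miR-181d-5p per miR-181c-5p was 3.3 times higher at P18 than at W10 and 3.65 times lower at Inv3 than at P18, without overlap and at the same exact permutation p. With a pseudocount of 10 RPM in place of 1 the calls named here for miR-181c-5p and miR-181d-5p held, but each of their folds was smaller. The largest of them, that of miR-181d-5p to miR-181a-5p from P18 to Lac7, was 5.28 with 10 RPM and 13.2 with 0.1 RPM, and those of miR-181d-5p per miR-181c-5p were 2.18 and 1.96 with 10 RPM. The fold of 4.81 for miR-181c-5p to miR-181a-5p was 3.14 with 10 RPM. Set against the near-identical sequence, reads of miR-181d-5p were 2.33 to 3.63% of those of miR-181b-5p at P18 and 0.0917 to 1.48% at Lac7, where the mean of miR-181b-5p was higher, with 1.76 to 6.95% at W10 and 0.377 to 4.14% at Inv3. Reads of miR-181c-5p were 2.41 to 3.39% of those of miR-181a-5p at W10 and 0.306 to 0.837% at Lac7, with P18 at 1.68 to 4.28% and Inv3 at 0.92 to 2.32%.

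The 3p arms, which tell the clusters apart, were much less abundant than the 5p arms for miR-181a and miR-181b. The highest was miR-181a-1-3p, from the chromosome 1 cluster, with mice at 11.4 to 25.2 RPM at W10, 27.1 to 42.8 RPM at P18, 118 to 141.9 RPM at Lac7 and 12.6 to 50.2 RPM at Inv3. It rose at both steps up to Lac7, by 0.74 (adjusted p = 0.025 in limma) and 1.89 (adjusted p = 1.4e-06), without overlap, and fell by 2.03 at Inv3 (adjusted p = 4.1e-07). Its mean at Lac7, 128 ± 9.71 RPM, was 6.26 times that of W10, beside 1.32 times for miR-181a-5p, and without W10 mice 1 and 4 the folds were 6.61 and 2.16. Its neighbour miR-181b-1-3p, from the hairpin 97 bases further along, had another course, with mice at 2.15 to 5.97 RPM at W10, 14.1 to 27.6 RPM at P18, 6.65 to 25.7 RPM at Lac7 and 3.6 to 16.6 RPM at Inv3. It rose by 2.13 from W10 to P18 (adjusted p = 1e-05 in limma, no overlap), did not pass from P18 to Lac7, at -0.41 (adjusted p = 0.34), and fell by 0.98 at Inv3 (adjusted p = 0.02, with overlap). There were 0.5 to 0.857 reads of miR-181b-1-3p per read of miR-181a-1-3p at P18, above every mouse of the other stages, whose ranges were 0.0908 to 0.462 at W10, 0.0495 to 0.202 at Lac7 and 0.156 to 0.353 at Inv3, a difference that was not tested.

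The 3p arms of the chromosome 2 cluster were at most 22.5 RPM. For miR-181a-2-3p the mice were at 4.37 to 9.68 RPM at W10, 0 to 2.13 RPM at P18, 3.99 to 8.90 RPM at Lac7 and 0.86 to 6.14 RPM at Inv3. At P18 this was 7 reads over 6 mice, with 0 reads in mice 4 and 6, which allows up to 3.25 and 3.45 RPM (3 reads, counting error only). It fell by 1.93 from W10 to P18 and rose by 1.69 to Lac7, both without overlap (adjusted p = 0.00015 and 0.00059 in limma). For miR-181b-2-3p the mice were at 1.08 to 6.12 RPM at W10, 1.04 to 7.46 RPM at P18, 9.31 to 22.5 RPM at Lac7 and 0 to 8.31 RPM at Inv3. It rose by 1.92 from P18 to Lac7 and fell by 1.99 to Inv3 (adjusted p = 0.0011 and 0.00081 in limma), without overlap, and was at -0.15 for P18 against W10 (adjusted p = 0.83). The chromosome 2 arm miR-181a-2-3p per miR-181a-1-3p was 6.37 times lower at P18 than at W10 and 7.31 times lower at Lac7 than at W10, without overlap (exact permutation p = 0.0022, adjusted p = 0.0041). With so few reads these folds depend on the pseudocount. The fold at P18 was 16.2 with 0.1 RPM and 2.17 with 10 RPM, and that at Lac7 7.81 and 4.93, so that the order of P18 and Lac7 is not settled. The chromosome 1 arm made up 71.0 to 85.2% of the miR-181a 3p reads at W10 and 94.3 to 100% at P18. Lac7 was at 93.0 to 97.2%, and Inv3, at 77.8 to 97.0%, overlapped the other 3 stages. Of the miR-181b 3p reads it made up 37.5 to 75.0% at W10, 74.1 to 95.2% at P18 and 41.7 to 65.4% at Lac7. Inv3, at 57.1 to 100%, overlapped these 3 stages as well.

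On chromosome 8, miR-181c-3p had mice at 1.99 to 15.1 RPM at W10, 10.7 to 17.6 RPM at P18, 1.40 to 12.04 RPM at Lac7 and 4.15 to 9.22 RPM at Inv3. It rose by 0.99 from W10 to P18 (adjusted p = 0.037 in limma) and fell by 1.80 to Lac7 (adjusted p = 0.0003), with overlap at both steps. The 5p arm of that hairpin was at -0.65 for P18 against W10 and did not pass. No call given here for a 3p arm was lost with size factors or TMM, or, against W10, without W10 mice 1 and 4. Against W10, the 3p changes without these mice were 0.83, -1.75, 1.83 and 1.30 at P18 for miR-181a-1-3p, miR-181a-2-3p, miR-181b-1-3p and miR-181c-3p. For Inv3 against W10, miR-181a-1-3p and miR-181b-1-3p did not pass (0.59 and 0.74, adjusted p = 0.078 and 0.089 in limma), but both passed under either scaling. Without W10 mice 1 and 4 neither passed, at 0.68 and 0.44 (adjusted p = 0.084 and 0.37 in limma). Only 4 reads of miR-181d-3p were counted in the 24 libraries, and it was not tested. Over the 5 tested 3p arms, 3 were higher and 1 lower for P18 against W10, 3 higher and 1 lower for Lac7 against P18, and 3 lower and 0 higher for Inv3 against Lac7, with medians of 0.74, 1.69 and -0.98 beside -0.32, -0.34 and 0.28 over all miRNAs, of which 12.1% were higher and 29.4% lower, 13.8% and 31.4%, and 27.9% and 18.9%. For Lac7 against W10, 3 were higher and 0 lower, for Inv3 against W10 none passed in either direction, and for Inv3 against P18 1 was higher and 2 lower. The shares over all miRNAs in these 3 comparisons were 18.2% higher and 48.5% lower, 7.9% and 31.2%, and 10.8% and 17.6%, and the medians of the arms were 1.71, -0.21 and -0.15, beside -0.66, -0.41 and -0.11. The number of 5p reads per 3p read differed as well, as a description with no test. For miR-181a it had medians of 32.3, 17.8, 9.2 and 14.5 from W10 to Inv3 in the order of the stages, and for miR-181b medians of 30.2, 44.1, 49.8 and 33.7.

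**Figure D5:**
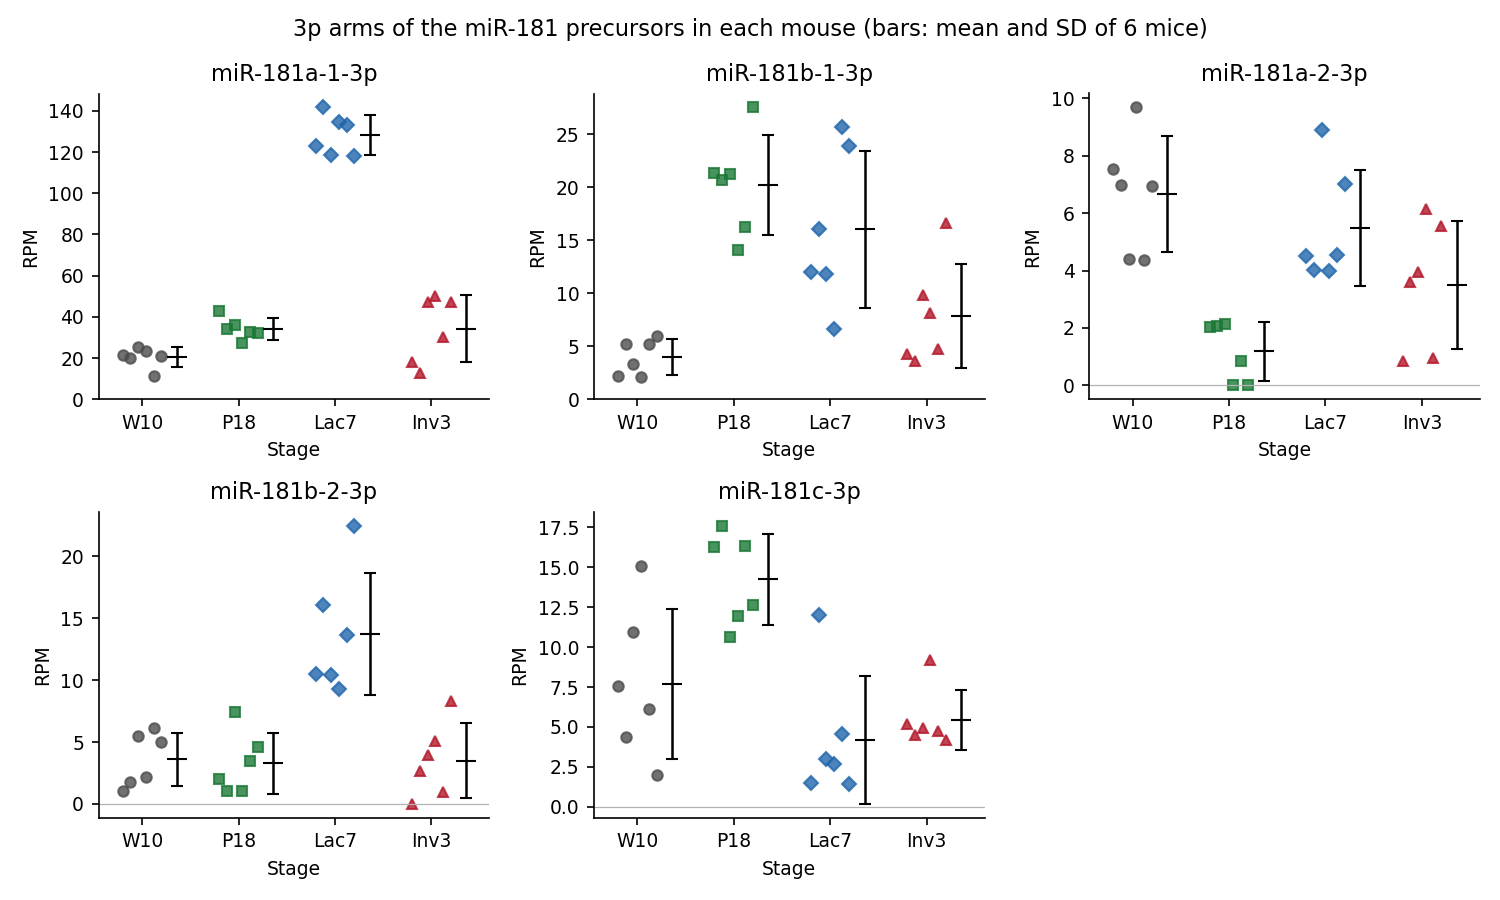
Level of the 5 tested 3p arms in RPM (vertical axes, linear, each with its own range) by stage (horizontal axes), with 1 point per mouse and bars for the mean and SD of 6 mice. The Lac7 mice of miR-181a-1-3p, at 118 to 141.9 RPM, stand above all others, while miR-181b-1-3p is already high at P18 and miR-181a-2-3p is lowest there.

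Within a stage, the abundant members varied together from mouse to mouse. After subtracting stage means, log2 levels of miR-181a-5p and miR-181b-5p over the 24 mice had r = 0.97 and rho = 0.97 (permutation p = 1e-05 for both, the smallest that 100000 permutations within stages can give, adjusted p = 0.00022 over 22 relations). Without the 2 mice farthest from the median r was 0.96, and without W10 mice 1 and 4 it was 0.93. Within single stages r was 0.98 at W10, 0.96 at both P18 and Inv3 and 0.89 at Lac7 (n = 6 each, no test). For miR-181a-5p and miR-181c-5p r was 0.72 and rho 0.59 (permutation p = 0.0015 and 0.0065, adjusted 0.013 and 0.048), falling to 0.57 without the 2 farthest mice and to 0.42 without W10 mice 1 and 4, with r = 0.98 at W10 and 0.25 at P18. For miR-181c-5p and miR-181d-5p r was 0.63 and rho 0.50 (permutation p = 0.0032 and 0.021, adjusted 0.014 and 0.09). That r fell to 0.51 without the 2 farthest mice and to 0.47 without W10 mice 1 and 4. Within stages it ran from 0.39 at P18 to 0.87 at W10.

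Markers of cell types moved with the stages as well, and their part in the results was not tested. Of the 7 epithelial miRNAs (the miR-200 family, miR-205-5p and miR-203-3p), none was at 0 in all mice of a stage, and the most abundant was miR-200a-3p. Their sum was at 20860 to 25330 RPM at W10, 55460 to 70210 RPM at P18, 119000 to 138700 RPM at Lac7 and 27780 to 81460 RPM at Inv3. For P18 against W10, 5 of these 7 were higher and 0 lower, for Lac7 against P18 4 were higher and 2 lower, and for Inv3 against Lac7 1 was higher and 6 lower, where the shares over all miRNAs were 12.1% and 29.4%, 13.8% and 31.4%, and 27.9% and 18.9%. The median changes of the 7 were 1.62, 1.11 and -1.45. Between mice of a stage, miR-181a-5p and this sum had r = 0.47 and rho = 0.65 (permutation p = 0.0018 and 0.0034, adjusted 0.013 and 0.037, and r = 0.53 without the 2 farthest mice). The relation did not hold within every stage, with r = 0.94 at W10 and 0.86 at Inv3 but -0.23 at P18 and 0.43 at Lac7 (n = 6 each). At Inv3, the 3 mice with the lower epithelial sums (1, 2 and 5) had 562, 388 and 414 RPM of miR-181a-5p, and mice 3, 4 and 6 had 813, 603 and 656 RPM. For miR-181b-5p, the same mice had 290.0, 244 and 222.9 RPM, and 397, 336 and 366 RPM.

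The lymphocyte miRNAs, miR-150-5p, miR-155-5p and miR-342-3p, were lowest at Lac7, where the means of miR-181a-5p and miR-181b-5p were highest. Their sum, mostly miR-342-3p, was at 3592 to 5007 RPM at W10, 1637 to 2530 RPM at P18, 424 to 838 RPM at Lac7 and 1575 to 3743 RPM at Inv3. All 3 fell from W10 to P18 and again to Lac7, and all 3 rose at Inv3. The 3 leukocyte and myeloid miRNAs, miR-142a-3p, miR-142a-5p and miR-223-3p, did the same, with sums of 24720 to 47270 RPM at W10, mostly miR-142a-5p, 6903 to 23190 RPM at P18, 3939 to 11990 RPM at Lac7 and 12880 to 23540 RPM at Inv3. Over all miRNAs 29.4% were lower at the first of these steps, 31.4% were lower at the next and 27.9% were higher at the last. No miRNA of either list was at 0 in all mice of a stage. Between mice of a stage, the lymphocyte sum had r = -0.28 with miR-181a-5p and 0.01 with miR-181c-5p (permutation p = 0.12 and 0.96, adjusted 0.26 and 0.99).

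The summed level of the stromal miRNAs, most of it miR-143-3p, was highest at Inv3. These 5 miRNAs (miR-143-3p, miR-145a-5p, miR-199a-3p, miR-199a-5p and miR-214-3p) summed to 169000 to 211300 RPM at W10, 191000 to 214800 RPM at P18, 147000 to 171100 RPM at Lac7 and 256700 to 349600 RPM at Inv3, and all 5 rose from Lac7 to Inv3, where 27.9% of all miRNAs were higher and 18.9% lower. Against W10, miR-143-3p and miR-145a-5p were higher at Inv3 and the other 3 were lower, where 7.9% of all miRNAs were higher and 31.2% lower. The mean sum of the 4 skeletal muscle miRNAs, led by miR-133a-3p, was 11360 ± 7945 RPM at W10, 982 ± 1031 RPM at P18, 2059 ± 1821 RPM at Lac7 and 381 ± 280.1 RPM at Inv3, and all 4 were lower at Inv3 than at W10, as were 31.2% of all miRNAs. The mean sum of the 3 red blood cell miRNAs, led by miR-451a, was between 607 and 1149 RPM, and that of the 2 endothelial miRNAs, led by miR-126a-3p, between 15590 and 18470 RPM. None of these had an adjusted permutation p under 0.05 in its relation with miR-181a-5p or miR-181c-5p between mice.

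A list of 8 miRNAs known from lymphocyte development and activation held miR-146a-5p, miR-17-5p, miR-20a-5p and miR-92a-3p beside 4 of the marker miRNAs above (miR-150-5p, miR-155-5p, miR-142a-3p and miR-223-3p). For P18 against W10, 2 of 8 were higher (miR-17-5p and miR-20a-5p) and 6 lower, miR-92a-3p among them. For Lac7 against P18, 0 were higher and 8 lower, with a median change of -1.35, beside -0.34 over all miRNAs. For Inv3 against Lac7, 6 were higher and 0 lower, with a median of 1.45, beside 0.28 over all miRNAs. The shares over all miRNAs in the 3 comparisons were 12.1% higher and 29.4% lower, 13.8% and 31.4%, and 27.9% and 18.9%. The most abundant of them, miR-146a-5p, a brake on inflammatory signalling, was at 13140 ± 1251 RPM at W10, 3267 ± 1143 RPM at Lac7 and 14670 ± 4678 RPM at Inv3.

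Of 12 miRNAs known from EMT and TGF-beta signalling (the miR-200 family, miR-205-5p, miR-21a-5p, miR-155-5p, miR-10b-5p, miR-221-3p, miR-222-3p and miR-29b-3p, of which the first 6 are also epithelial markers), 5 were higher and 5 lower for P18 against W10, 7 higher and 2 lower for Lac7 against P18, and 4 higher and 5 lower for Inv3 against Lac7. Over all 544 miRNAs, 12.1% were higher and 29.4% lower in the first of these comparisons, 13.8% and 31.4% in the next, and 27.9% and 18.9% in the last. The median changes of the 12 were 0.02, 0.72 and 0.09, beside -0.32, -0.34 and 0.28 over all miRNAs. Those lower at Inv3 were the miR-200 family members, which hold cells in the epithelial state, and those higher were miR-10b-5p, miR-155-5p, miR-205-5p and miR-21a-5p. The level of miR-21a-5p, one of the most studied miRNAs of wound repair and cancer, was 10650 ± 1361 RPM at Lac7 and 31170 ± 9209 RPM at Inv3.

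The miRNAs with the most similar course were found among 185 miRNAs outside the family whose stage mean reached 100 RPM in any stage, by Pearson correlation of log2(RPM + 1) over the 24 libraries. These are descriptions, since the libraries share their stage means and the scaling to a fixed total. The 5 closest to miR-181b-5p were miR-148a-3p (r = 0.86), miR-200c-3p (0.85), miR-210-3p (0.85), miR-190a-5p (0.84) and miR-30b-3p (0.83). The first, an abundant miRNA of milk, had means of 2356 RPM at W10, 21330 RPM at P18, 46230 RPM at Lac7 and 9078 RPM at Inv3. For miR-181a-5p the 5 were miR-345-3p (0.75), miR-1839-5p (0.70), miR-151-5p (0.68), miR-484 (0.67) and miR-378a-3p (0.66). For miR-181c-5p they were miR-872-5p (0.81), miR-425-5p (0.80), miR-92a-3p (0.77), miR-455-5p (0.73) and miR-214-3p (0.72), of which miR-92a-3p fell from 975.1 RPM at W10 to 127 RPM at Lac7. For miR-181d-5p they were miR-204-5p (0.80), miR-361-5p (0.73), miR-17-5p (0.71), miR-431-5p (0.70) and miR-93-5p (0.69). The closest, miR-204-5p, had its highest mean, 417 RPM, at P18 and its lowest, 35.6 RPM, at Lac7. No miRNA was among the 5 of more than 1 member, and miR-181a-5p and miR-181b-5p had r = 0.6 with each other over all libraries.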

How the data were processed

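The authors extracted small RNA from ground whole glands, made QIAseq miRNA libraries, sequenced them on an Illumina instrument and counted reads with QuickMIRSeq against miRBase 22. Per the labels, Trimmomatic 0.36, cutadapt, FastQC, MultiQC and GRCm38 were also used. The deposited values are RPM, scaled by the authors to a fixed total per library. All values were whole multiples of 1 read (100% within 0.0051 RPM), which gave depths of 660346 to 1165321 reads per library. In W10 mouse 7 a read is worth 0.9945 RPM, so near 1 that whole multiples say less about its depth. The 60 same-stage pairs of libraries all differed by more than sampling noise (smallest chi-square per degree of freedom 9.63). A text from GEO exchanges the days of lactation and involution. The sample labels and the authors' paper, which gives both days, were followed.

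Log2(RPM + 1) was fitted with limma 3.58.1 (R 4.3.3, trended eBayes) in 1 model of the 4 stages without further terms, for 544 of 1009 miRNAs, and p-values were adjusted by the Benjamini-Hochberg method over all of them. The fit was also run on simulated counts for Lac7 against P18, with equal numbers of miRNAs raised and lowered. That setting is simpler than these data, and no result here rests on it. Ratios within a library were compared by exact permutation tests, and relations between mice, after subtracting stage means, by 100000 permutations within stages (Python 3.11.15, numpy 2.4.6, scipy 1.17.1). Alternatives were DESeq2 size factors, TMM factors, other pseudocounts and filters, fits on 12 libraries, a replicate block, each mouse left out, W10 mice 1 and 4 left out together, and edgeR 4.0.16 and DESeq2 1.42.0 on the recovered reads, with which edgeR called 139 to 317 miRNAs per comparison, against 155 to 363 in limma. Nothing in the labels says how mice were housed or bred, so p-values measure the spread between these mice. Intervals and floors on reads cover counting error only.

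The family and the marker and pathway lists were chosen with earlier results of these data known. All members and their 3p arms are named, with the 5 miRNAs most correlated with each member. Listed miRNAs are named where they make up a list, lead it or passed the test. Sequences are from RefSeq (GRCm38.p6) and loci from GENCODE M21.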

Additional observations from a re-analysis of the deposited data

Results flagged for a closer look

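The 4 members, the 5 tested 3p arms and the log2 ratio of miR-181b-5p to miR-181a-5p gave 40 sets of 6 mice over the 4 stages. In 4 of these sets, the highest or lowest mouse lay so far from the next, as a share of the whole range (the ratio given below), that it passed Dixon's critical value at the 95% level, which chance gives in about 1 in 20 sets. The level of miR-181d-5p in Inv3 mouse 1 was 12.01 RPM (ratio 0.679). The level of miR-181a-1-3p in W10 mouse 5 was 11.37 RPM (ratio 0.63), below the other mice. The level of miR-181c-3p was 12.04 RPM in Lac7 mouse 2 (ratio 0.705) and 9.22 RPM in Inv3 mouse 4 (ratio 0.803). W10 mice 1 and 4, the highest of their stage in all 4 members, are not among these. The ratio takes only the gap from an extreme mouse to the next, so 2 high mice can hide each other and it cannot judge this pair.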

How the results depend on the processing

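The differences in the ratio of miR-181b-5p to miR-181a-5p, the changes of miR-181a-5p and miR-181b-5p from Lac7 to Inv3, of miR-181a-5p and miR-181d-5p from P18 to Lac7, of miR-181b-5p between W10 and P18 or Lac7, and of miR-181b-5p and miR-181d-5p from P18 to Inv3 kept their direction and their call under every alternative run for them. So did the lower miR-181c-5p at Lac7 and Inv3 against W10. The results below did not. Some alternatives test more miRNAs or fewer libraries by construction, and beyond that the cause was not tested. Low read numbers limit miR-181c-5p, miR-181d-5p and the 3p arms. The changes of the 3p arms were recomputed with the other scalings and, against W10, without W10 mice 1 and 4 only.

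With DESeq2 size factors, the changes against W10 at Inv3 were -0.313 for miR-181a-5p and -1.353 for miR-181d-5p (both lost) and 0.368 for miR-181b-5p (other sign), those of Lac7 against P18 were 0.747 for miR-181b-5p (gained) and -0.74 for miR-181c-5p (lost), miR-181d-5p was at -0.768 for Lac7 against W10 (lost), miR-181c-5p was at -0.023 for Inv3 against Lac7 (other sign), and 1 member passed for Inv3 against W10. With TMM factors, Inv3 against W10 was -0.288 for miR-181a-5p and -1.338 for miR-181d-5p (lost) and 0.393 for miR-181b-5p (other sign), miR-181d-5p was at 1.382 for P18 against W10 (gained) and -0.863 for Lac7 against W10 (lost), and 2 members passed for P18 against W10 and 1 for Inv3 against W10. With edgeR on reads, Inv3 against W10 was -0.444 for miR-181a-5p (lost) and 0.229 for miR-181b-5p (other sign), miR-181c-5p was at -0.912 for Lac7 against P18 and miR-181d-5p at -0.88 for Lac7 against W10 (both lost). With DESeq2 on reads, these were -0.492, 0.183, -0.786 and -0.805, with miR-181b-5p at 0.722 for Lac7 against P18 (gained) and miR-181c-5p at -0.054 for Inv3 against Lac7 (other sign). Beside the member counts above, of all 544 miRNAs 162 passed for Inv3 against W10 with size factors and 167 with TMM, and 212 for P18 against W10 with TMM.

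Without a filter, where 1009 miRNAs were tested, the same changes of 0.602 and -0.691 for miR-181a-5p (Lac7 and Inv3 against W10) and -1.242 for miR-181d-5p (Lac7 against W10) no longer passed, and 2 members passed for Lac7 against W10, as did 351 of all 1009 miRNAs. With only the 12 libraries of a comparison, these 3 changes of 0.602, -0.691 and -1.242 were lost as well, 2 members passed for Lac7 against W10 (361 of all 544 miRNAs), and the 0.444 of miR-181b-5p for Lac7 against P18 passed. With a filter at 100 RPM, which leaves out miR-181c-5p and miR-181d-5p, 1 member passed for Lac7 against P18, 2 for Lac7 against W10, 1 for Inv3 against W10 and 1 for Inv3 against P18. With a pseudocount of 0.1 RPM, miR-181d-5p was at -1.443 for Lac7 against W10 (lost), and the log2 ratio of miR-181a-2-3p to miR-181a-1-3p differed by 1.056 for Lac7 against P18 (other sign) and 1.167 for Inv3 against Lac7 (lost). With 10 RPM, that ratio differed by -1.184 for Lac7 against P18 (gained) and 0.345 for Inv3 against P18 (lost), the ratio of miR-181c-5p to miR-181a-5p by 0.041 for P18 against W10 (other sign) and -0.31 for Inv3 against W10 (lost), that of miR-181d-5p to miR-181a-5p by 1.079 for Inv3 against Lac7 (gained), and that of miR-181d-5p to miR-181c-5p by 0.154 for Inv3 against W10 (other sign).

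On average, mice of the same number were no more alike than other mice. The mean r was -0.05 over 33 pairs of the same number and 0.00 over 183 other pairs, in 188 miRNAs. The lowest r of a same-number pair was -0.795, and whether numbers pair the mice was not tested. A replicate block also takes W10 mouse 7, which shares its number with no other mouse, out of the comparison. With it, miR-181a-5p was at -0.714 for P18 against W10 (gained) and 0.413 for Lac7 against W10 (lost), 2 members passed for P18 against W10 (220 of all 544 miRNAs), and no other call of a member changed. The same values, -0.714 and 0.413, come from leaving out W10 mouse 7 alone, without the replicate block.

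Without W10 mice 1 and 4, an alternative added after the data were seen, Inv3 against W10 was -0.174 for miR-181a-5p and -1.065 for miR-181d-5p (lost) and 0.508 for miR-181b-5p (other sign, passed), miR-181d-5p was at 1.683 for P18 against W10 (gained) and -0.628 for Lac7 against W10 (lost), 2 members passed for P18 against W10, and the ratio of miR-181d-5p to miR-181a-5p differed by -1.748 for Lac7 against W10 (lost). Of all 544 miRNAs, 226 passed for P18 against W10 with all mice, and the count without these 2 mice was not taken.

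Leaving out 1 mouse at a time, miR-181a-5p ranged from -0.714 to -0.284 for P18 against W10 (passed without W10 mouse 7), from 0.413 to 0.843 for Lac7 against W10 (lost without W10 mouse 2, 3, 5 or 7, or any Lac7 mouse but 1) and from -0.881 to -0.451 for Inv3 against W10 (lost without W10 mouse 1 or 4, or Inv3 mouse 2 or 5). For miR-181b-5p the range was -0.156 to 0.208 for Inv3 against W10, above 0 without W10 mouse 1 or 4, or Inv3 mouse 1, 2 or 5. For miR-181c-5p it was -1.189 to -0.857 for Lac7 against P18 (lost without P18 mouse 2 or Lac7 mouse 2), -0.021 to 0.326 for Inv3 against Lac7 (below 0 without Lac7 mouse 2) and -1.048 to -0.685 for Inv3 against P18 (passed without P18 mouse 5). For miR-181d-5p it was 0.733 to 1.405 for P18 against W10 (passed without W10 mouse 4) and -1.578 to -0.906 for Lac7 against W10 (lost without W10 mouse 1, 2, 3 or 4, or Lac7 mouse 2, 3 or 6). From 1 to 2 members passed for P18 against W10, and from 2 to 4 for Lac7 against W10. For Lac7 against P18, Inv3 against W10 and Inv3 against P18, from 2 to 3 passed in each. With all mice, 226 and 363 of all 544 miRNAs passed in the first 2 of these comparisons, and 246, 213 and 155 in the last 3. The counts over all miRNAs were not taken with a mouse left out. Of the ratios, miR-181c-5p to miR-181a-5p ranged from -0.834 to -0.576 for Inv3 against P18 (passed without P18 mouse 1 or 5, or Inv3 mouse 2), miR-181d-5p to miR-181a-5p from -1.289 to -0.755 for Inv3 against W10 (passed without Inv3 mouse 1), miR-181d-5p to miR-181c-5p from -1.629 to -1.089 for Lac7 against P18 (lost without any P18 mouse but 2, or Lac7 mouse 2, 3, 4 or 6) and from -0.36 to 0.109 for Inv3 against W10 (above 0 without Inv3 mouse 6), and miR-181a-2-3p to miR-181a-1-3p from 0.888 to 1.378 for Inv3 against P18 (lost without Inv3 mouse 2).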
